A study of Macaca mulatta with 10 samples.

Results

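Triglyceride is the form in which liver stores fatty acids, and this report describes the genes that make it, store it, break it down and load it onto lipoproteins. The members were 10 genes chosen by symbol: GPAM, LPIN1, LPIN2, DGAT1, DGAT2, PLIN2, G0S2, PNPLA2, PNPLA3 and MTTP. A probe set counted as a member when the platform annotation gave it exactly 1 symbol and that symbol was among these. This found 14 of the 52865 probe sets of the array, for 8 of the 10 genes, while LPIN1 and PLIN2 were matched by no probe set and are not analysed here. GPAM, LPIN2, DGAT2, PNPLA2, PNPLA3 and MTTP had 2 probe sets each, numbered here 1 and 2 in order of mean signal, and DGAT1 and G0S2 had 1. All 14 lay above the array median on 10 of 10 arrays and all were tested.

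Liver RNA of 10 rhesus macaques (Macaca mulatta) was measured on 1-colour arrays, with 1 array per animal, in 5 brain-dead donors and 5 living donors as controls. In the brain-dead donors an extradural balloon catheter was inflated until brain death, and blood pressure was supported with intravenous fluid and with arginine-vasopressin, dopamine or both. By the sample labels brain death lasted 6 h, while the text on the series' design gives 5 h, so its length is uncertain. The controls were sedated, anaesthetised and ventilated for 1 h before recovery of the liver, so that the length of ventilation and the vasoactive drugs differ together with brain death and cannot be told apart from it. In both groups the liver was flushed in place with UW preservation solution. The labels name no genotype, strain or feeding state. The controls were 3 females and 2 males aged 4 to 20 y. The brain-dead animals were 2 females and 3 males, of which 4 have an age in the labels, between 7 and 18 y. The comparison asks how the liver's transcripts stand in a brain-dead donor at the time of recovery.

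In the glycerol phosphate pathway, acyl groups are added to glycerol-3-phosphate by an acyltransferase such as GPAM, the phosphate is removed by a lipin, and a diacylglycerol acyltransferase, DGAT1 or DGAT2, adds the last acyl group. The product is kept in lipid droplets, where the lipase PNPLA2 (adipose triglyceride lipase) starts its breakdown and G0S2 inhibits PNPLA2. In hepatocytes, triglyceride is also transferred by MTTP onto apolipoprotein B and leaves the cell as very-low-density lipoprotein (VLDL).

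The deposited values are MAS5 signals, a linear intensity per probe set, and the array medians lay between 175 and 227. Precision is limited by how many arrays there were. Changes are given as log2 of brain-dead over control from limma with its standard error (SE), and a change is called at a Benjamini-Hochberg adjusted p under 0.05 over the 26653 probe sets tested. Both animals numbered 1 stood apart on the second principal component of those probe sets, at 69.6 for control animal 1 and 72.1 for brain-dead animal 1, while the next highest, brain-dead animal 5, was at 26.5. Of 12 hepatocyte markers 8 had a probe set and none was called, although all 8 had a change below 0 (median -0.17) and the groups were separate for APOA2 and AHSG. Their summed signal ran from 850831 to 1040070 in controls and from 751340 to 912480 in brain-dead animals. Of 8 neutrophil markers 6 had a probe set, and 2 of the 4 tested rose, S100A8 and S100A9. The summed signal of the 6 ran from 887 to 6038 in controls and from 7964 to 56924 in brain-dead animals. It was mostly that of S100A8 and S100A9, with means of 12411 and 13929 in brain-dead animals, where CSF3R, next highest, averaged 406. Neither CSF3R, at 0.76 ± 0.34, nor FPR1, at -0.26 ± 0.32, was called (limma, Benjamini-Hochberg adjusted p = 0.195 and 0.671). S100A12 was above the array median on only 3 arrays and was not tested. Its signals were separate, at 21.3 to 78.8 in controls and 103 to 343 in brain-dead animals. The granule gene MPO lay below the array median on all arrays. Of 6 adipocyte markers 4 had a probe set, and none of the 3 tested was called, with a summed signal of 4688 to 9976 in controls and 3922 to 7872 in brain-dead animals. LEP missed the threshold at 0.71 ± 0.24 (adjusted p = 0.0938 by limma and Benjamini-Hochberg) with groups that were separate, and CIDEA was below the array median on all arrays. The part of these marker levels in the members' values was not tested. No gene was called in the marker lists of macrophages, stellate cells and fibroblasts, lymphocytes, endothelium, cholangiocytes or erythroid cells. In tissue RNA, fewer cells of a type and less RNA per cell cannot be told apart.

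Among the synthesis genes, both probe sets of DGAT2 and of GPAM and 1 of the 2 of LPIN2 fell in the brain-dead livers, while DGAT1 did not pass. The lipase PNPLA2 rose by 1 of its 2 probe sets. DGAT2 had the largest change, 4.30-fold and 5.13-fold lower by its 2 probe sets, followed by GPAM. In all, 5 of the 14 probe sets fell, 1 rose and 8 did not pass, a share called of 42.9%. Over all probe sets tested, 6.10% were called (2.72% higher and 3.39% lower). The probe sets that fell were both of DGAT2, both of GPAM and 1 of LPIN2. With each gene represented by its probe set of highest mean signal, 2 of the 8 genes fell (DGAT2 and GPAM) and 1 rose (PNPLA2), where 6.81% of 9835 genes were called (2.91% higher and 3.90% lower). For 4 of the 14 probe sets the groups were fully separate, against 6.93% of all those tested. The median change of the 14 was -0.84, and that of all probe sets tested was -0.0027. The count of 6 depended on single arrays. It was 3 without control animal 1, 3 or 5 or brain-dead animal 1, 3, 4 or 5, and 2 without control animal 2, these 2 being the probe sets of DGAT2.

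**Figure D1:**
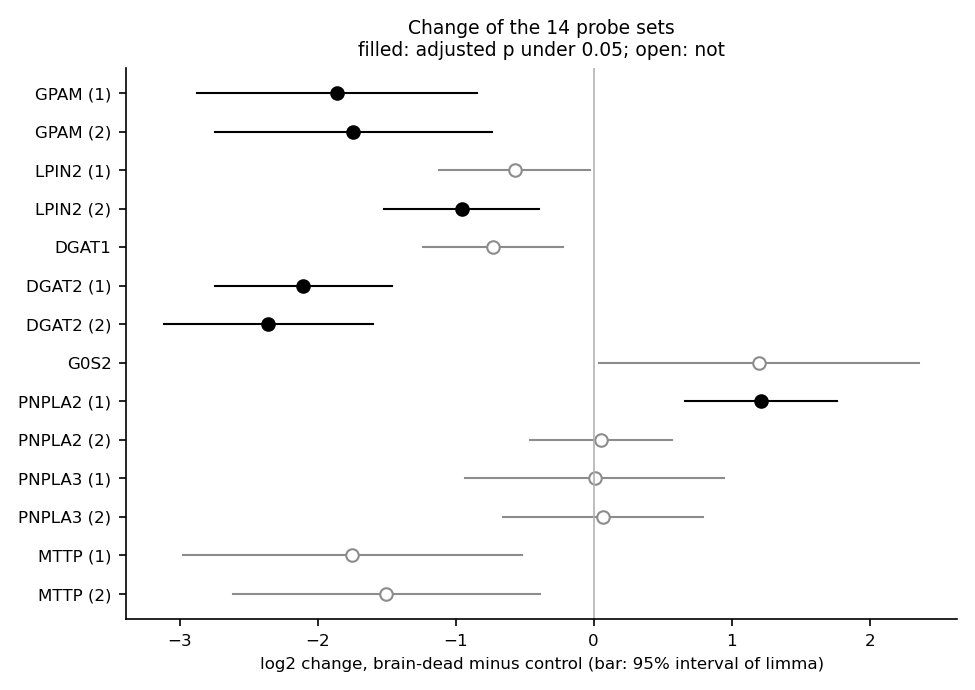
Log2 change of each of the 14 probe sets (brain-dead minus control, x axis), ordered by role, with the 95% interval of limma as a bar and 5 animals per group. Filled points have an adjusted p under 0.05: both probe sets of DGAT2 at -2.11 and -2.36, both of GPAM at -1.86 and -1.74, LPIN2 probe set 2 at -0.96 and PNPLA2 probe set 1 at 1.21.

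GPAM, the mitochondrial acyltransferase that commits fatty acids to the glycerol backbone, was lower in the brain-dead animals. Its probe set 1 (MmugDNA.33149.1.S1_s_at) read 18378, 20868, 42202, 8224 and 34339 in control animals 1 to 5, and 3593, 15301, 6021, 3194 and 6856 in brain-dead animals 1 to 5. Control animal 4, the lowest control, lay below brain-dead animal 2, the highest of its group, so the groups overlapped. The change was -1.86 ± 0.47 (SE, limma, Benjamini-Hochberg adjusted p = 0.0359), a fall of 3.63-fold, and 5 of 5 brain-dead animals were below the control mean. Probe set 2 (MmugDNA.33148.1.S1_at) gave -1.74 ± 0.47 (limma, Benjamini-Hochberg adjusted p = 0.0438). It put the animals in nearly the same order, with a correlation of 0.976 with probe set 1 over 10 arrays after centring on group means. The name of probe set 1 marks it as one that may also detect other transcripts. The spread among controls was wide, with an SD of 0.92 on the log2 scale for probe set 1. Control animals 3 and 5 were the highest and control animal 4 the lowest. Both calls held without control animal 4 or brain-dead animal 2 and were lost when any other single array was left out (limma, Benjamini-Hochberg adjusted p from 0.0642 to 0.0873 for probe set 1 and from 0.0755 to 0.102 for probe set 2). They were also lost with sex as a covariate (limma, Benjamini-Hochberg adjusted p = 0.0505 and 0.0609). The same held with sex and age (0.0885 and 0.0837) and with no filter on signal (0.0574 and 0.0678). Probe set 2 alone lost its call with centring on array medians (0.0509) and with eBayes without trend (0.0537, limma, Benjamini-Hochberg).

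LPIN2, a phosphatidate phosphatase that makes diacylglycerol, fell by 1 of its 2 probe sets. Probe set 2 (MmuSTS.4154.1.S1_at) read 23884, 16576, 12878, 12329 and 15128 in control animals 1 to 5, and 9777, 6288, 5224, 11230 and 9549 in brain-dead animals 1 to 5. Every control lay above every brain-dead animal, although control animal 4 and brain-dead animal 4 were close. Its change of -0.96 ± 0.26 was just inside the threshold (SE, limma, Benjamini-Hochberg adjusted p = 0.0472). The call was kept without control animal 4 (0.0375) and lost without any other single array (limma, Benjamini-Hochberg adjusted p from 0.0529 to 0.104). It was lost as well with quantile normalization (0.0569) and with centring on array medians (0.0867). Further losses came with no filter on signal (0.0783), with sex (0.0649) and with sex and age as covariates (0.121). With eBayes without trend the adjusted p was 0.0608 (limma, Benjamini-Hochberg). Probe set 1 of LPIN2 (MmugDNA.7806.1.S1_at) missed the threshold at -0.57 ± 0.25 (adjusted p = 0.193 by limma and Benjamini-Hochberg). Its signals overlapped between the groups, from 19743 to 47871 in controls with a median of 22238, and from 13348 to 22666 in brain-dead animals with a median of 18777. Control animal 1 was the highest by both probe sets and brain-dead animal 3 the lowest. With each gene taken as the median of its probe sets on each array, LPIN2 stood at -0.76 ± 0.25. That missed the threshold (adjusted p = 0.0836 by limma and Benjamini-Hochberg over all genes tested).

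The acyltransferases DGAT1 and DGAT2 catalyse the same final step but are unrelated in sequence, and DGAT2 fell by more. DGAT2 probe set 1 (MmugDNA.3447.1.S1_at) read 16182, 18561, 19329, 10794 and 16728 in control animals 1 to 5. The brain-dead animals read 4751, 4219, 4407, 4767 and 1686 in the same order. The groups were far apart, since the lowest control stood at more than double the highest brain-dead animal. Brain-dead animals 1 to 4 were within a narrow band and brain-dead animal 5 stood well below them. The change was -2.11 ± 0.30 (SE, limma, Benjamini-Hochberg adjusted p = 0.00344), a 4.30-fold lower level.

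DGAT2 probe set 2 (MmugDNA.12835.1.S1_at) read 15561, 11845, 14159, 6789 and 12826 in control animals 1 to 5, and 3518, 2490, 2642, 3027 and 916 in brain-dead animals 1 to 5. Control animal 4 was again the lowest control and brain-dead animal 5 the lowest of all. Its change was -2.36 ± 0.35 (limma, Benjamini-Hochberg adjusted p = 0.00390), and the groups did not overlap. Both calls held under all 23 alternatives run, with a highest adjusted p of 0.0152 (limma, Benjamini-Hochberg). Without brain-dead animal 5 the changes were -1.82 and -2.03.

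DGAT1 (MmuSTS.2299.1.S1_at) read 2153, 2790, 1881, 2392 and 1714 in control animals 1 to 5, and 1777, 1118, 1699, 1084 and 1007 in brain-dead animals 1 to 5. The groups overlapped only through control animal 5 and brain-dead animal 1. At -0.73 ± 0.23 DGAT1 missed the threshold (adjusted p = 0.0809 by limma and Benjamini-Hochberg, 95% interval -1.24 to -0.23), and it passed under none of the 23 alternatives, where the adjusted p lay between 0.0552 and 0.184. The ratio of DGAT2 to DGAT1 within each array fell by 1.38 on the log2 scale, with SDs of 0.48 in controls and 0.54 in brain-dead animals. A two-sided exact permutation test of that ratio gave p = 0.00794, the smallest possible with 5 against 5, and 0.0357 after Benjamini-Hochberg adjustment over 9 such pairs of probe sets. These pairs were chosen after the values were seen.

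**Figure D2:**
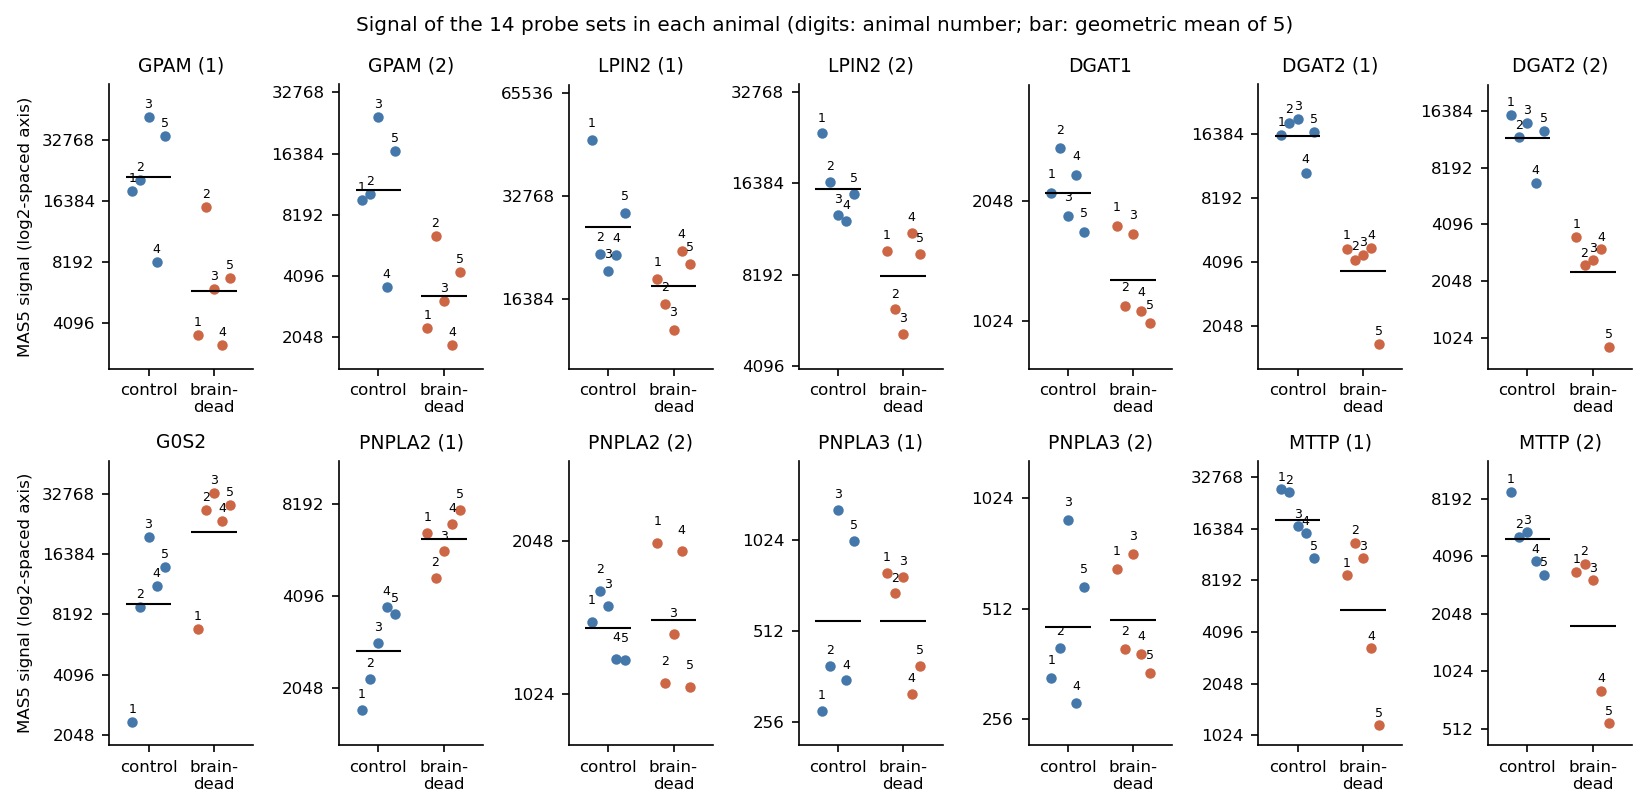
MAS5 signal of the 14 probe sets in each animal, on axes with log2 spacing that differ between panels. Points are animals, digits their numbers, and the bar is the geometric mean of 5 animals. The groups are separate for both probe sets of DGAT2, LPIN2 probe set 2 and PNPLA2 probe set 1, and G0S2 is lowest in the animal numbered 1 of either group.

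PNPLA2, the lipase that takes the first fatty acid from stored triglyceride, was higher by 1 of its 2 probe sets. Probe set 1 (MmunewRS.78.1.S1_at) read 1730, 2191, 2878, 3787 and 3572 in control animals 1 to 5, and 6587, 4692, 5741, 7076 and 7841 in brain-dead animals 1 to 5. The groups did not overlap, and control animal 1 was the lowest animal. Its change of 1.21 ± 0.25 is a rise of 2.32-fold (SE, limma, Benjamini-Hochberg adjusted p = 0.0184). The call was lost without control animal 2 (0.0504) and when both animals numbered 1 were left out (0.0578), with changes of 1.13 and 1.03 (adjusted p by limma and Benjamini-Hochberg).

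Probe set 2 of PNPLA2 (MmugDNA.39367.1.S1_at) did not follow. It read 1420, 1636, 1530, 1199 and 1195 in control animals 1 to 5, and 2033, 1079, 1342, 1956 and 1057 in brain-dead animals 1 to 5. Brain-dead animals 1 and 4 were above all controls and brain-dead animals 2 and 5 below all of them. The change was 0.05 ± 0.24 (limma, Benjamini-Hochberg adjusted p = 0.925, 95% interval -0.46 to 0.57). The changes of the 2 probe sets differed by 1.16 (two-sided exact permutation test of their ratio within arrays, p = 0.00794, adjusted over 9 pairs 0.0357). Their correlation over 10 arrays was -0.10 after centring on group means, where those of the other genes with 2 probe sets lay between 0.873 and 0.976. With each gene taken as the median of its probe sets on each array, PNPLA2 stood at 0.63 ± 0.20. That missed the threshold (adjusted p = 0.0706 by limma and Benjamini-Hochberg over all genes tested).

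G0S2, the inhibitor of PNPLA2, had a higher mean in brain-dead animals but did not pass. Its probe set (MmuSTS.1969.1.S1_at) read 2367, 8937, 20059, 11404 and 14179 in control animals 1 to 5, and 6940, 27348, 33061, 24033 and 28962 in brain-dead animals 1 to 5. Brain-dead animals 2 to 5 were above every control, whereas brain-dead animal 1 lay below all controls but control animal 1. The change was 1.20 ± 0.54 (SE, limma, Benjamini-Hochberg adjusted p = 0.198), with 4 of 5 brain-dead animals above the control mean. The controls themselves spanned a wide range, with an SD of 1.18 on the log2 scale. Without both animals numbered 1, a choice made after seeing the data, the change was 1.11 ± 0.24 and passed (limma, Benjamini-Hochberg adjusted p = 0.0406). The part of the neutrophil markers, of which S100A8 and S100A9 also rose, in the G0S2 values was not tested. The ratio of G0S2 to PNPLA2 probe set 1 differed between the groups by -0.01, with SDs of 0.86 in controls and 1.01 in brain-dead animals (two-sided exact permutation test, p = 1 unadjusted and after adjustment over 9 pairs).

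PNPLA3, a lipid droplet protein related to PNPLA2 and known for a human variant linked to fatty liver, showed no difference beyond its spread. Probe set 1 (MmugDNA.21551.1.S1_at) read 280, 394, 1291, 352 and 1021 in control animals 1 to 5, and 799, 683, 772, 318 and 392 in brain-dead animals 1 to 5. Control animals 3 and 5 were the highest of all animals and control animal 1 the lowest. Its change was 0.01 ± 0.43 (limma, Benjamini-Hochberg adjusted p = 0.995), and the 95% interval of -0.93 to 0.94 leaves room for a near doubling in either direction. Probe set 2 (MmugDNA.36606.1.S1_at) ranged from 283 to 894 in controls with a median of 399, and from 342 to 723 in brain-dead animals with a median of 397. Its change was 0.07 ± 0.34 (limma, Benjamini-Hochberg adjusted p = 0.929).

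MTTP, the microsomal transfer protein needed for VLDL assembly, had lower means in brain-dead animals by both probe sets, and neither passed. Probe set 1 (MmugDNA.36968.1.S1_at) read 28100, 26708, 16999, 15507 and 11060 in control animals 1 to 5, and 8857, 13625, 11047, 3279 and 1165 in brain-dead animals 1 to 5. Brain-dead animals 4 and 5 were far below the rest, and control animal 5 fell among brain-dead animals 1 to 3. The change was -1.75 ± 0.57 (SE, limma, Benjamini-Hochberg adjusted p = 0.0850), with 5 of 5 brain-dead animals below the control mean. The SD on the log2 scale was 1.48 in brain-dead animals and 0.56 in controls. Probe set 2 had a change of -1.50 ± 0.52 (limma, Benjamini-Hochberg adjusted p = 0.101). It ranged from 3267 to 8900 in controls with a median of 5177, and from 549 to 3754 in brain-dead animals with a median of 3066. With sex and age in the model, which drops brain-dead animal 3 for want of an age, both probe sets passed (limma, Benjamini-Hochberg adjusted p = 0.0304 and 0.0324). Without brain-dead animal 2 probe set 1 passed as well (0.0461).

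Seen animal by animal, the members did not move as a block. Brain-dead animal 5 had the lowest DGAT2, DGAT1 and MTTP of all animals by every probe set of these genes, yet the highest PNPLA2 by probe set 1. Brain-dead animal 4 had the lowest GPAM by both probe sets, and its LPIN2 was the highest of the brain-dead group. Brain-dead animal 2 kept the highest GPAM and MTTP of its group. Among controls, animal 1 combined the highest LPIN2 and MTTP with the lowest PNPLA2 (probe set 1), G0S2 and, by probe set 1, PNPLA3. Control animals 3 and 5 were the 2 highest controls for GPAM, G0S2 and PNPLA3. Control animal 4 had the lowest GPAM and DGAT2 of its group.

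**Figure D3:**
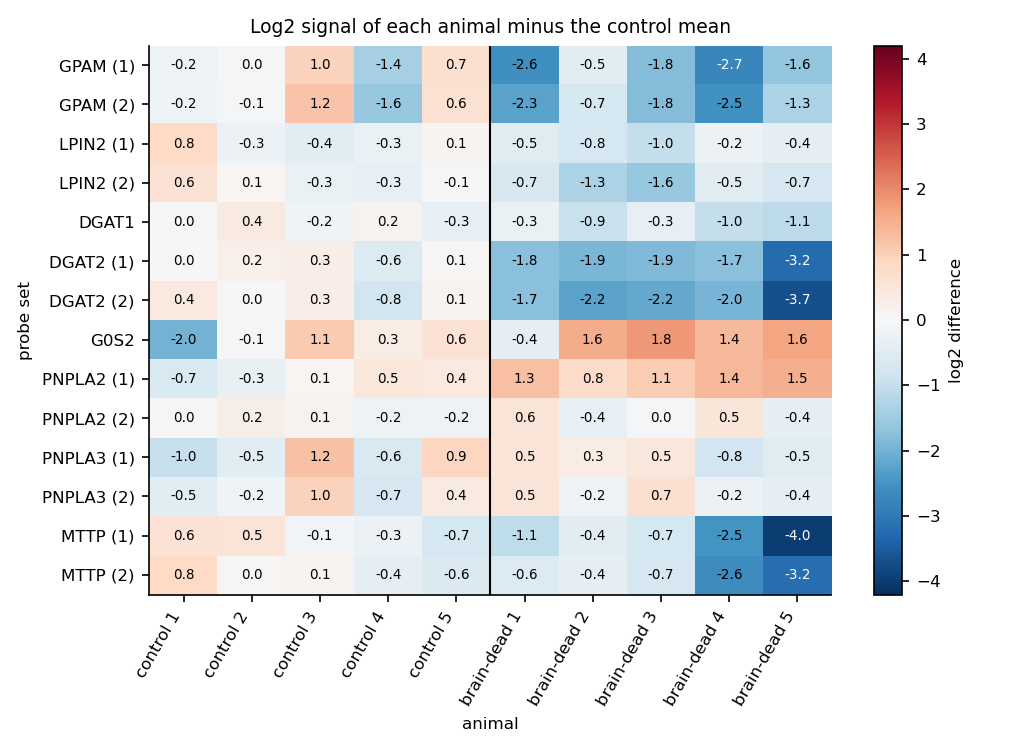
Log2 signal of each animal minus the mean of the controls for the 14 probe sets (rows), with the 5 controls left of the line and the 5 brain-dead animals right of it. Blue cells are below the control mean and red cells above. DGAT2 is below it in every brain-dead animal by at least 1.7, while MTTP probe set 1 runs from -0.4 in brain-dead animal 2 to -4.0 in brain-dead animal 5.

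**Figure D4:**
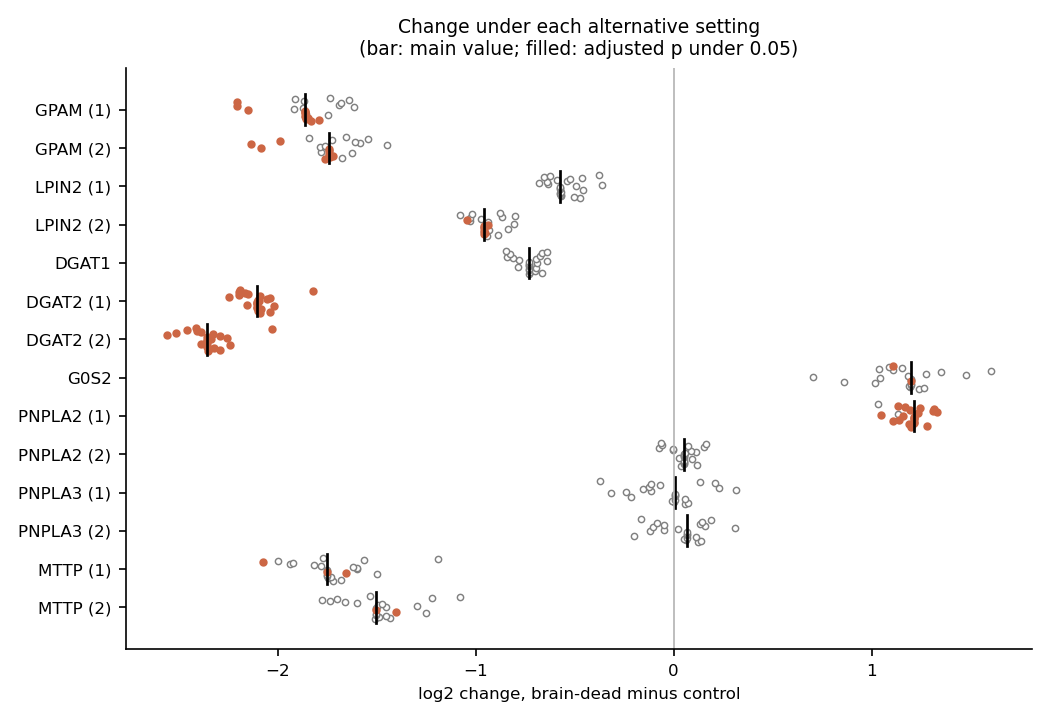
Log2 change (brain-dead minus control, x axis) of each of the 14 probe sets under the alternative settings (points, 23 for each probe set except the 2 of PNPLA3, which have 22), with the value given in the text as a black bar. Filled points have an adjusted p under 0.05: they are filled throughout for both probe sets of DGAT2, in part for GPAM, and in none for DGAT1, while those of PNPLA3 lie on both sides of 0.

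Sex did not separate the members past the threshold. Over all 26653 probe sets, none was called for the difference between the sexes or for the interaction of sex with brain death (limma, Benjamini-Hochberg, 0% called in each). At an unadjusted limma p under 0.05 there were 3223 (12.1%) for the difference and 1015 (3.81%) for the interaction. A share of 0.05 would be met on average if no probe set differed, and the first share was above it. The member with the smallest unadjusted p for sex was MTTP. Its probe set 2 was higher in females by 1.26 ± 0.41 (limma, unadjusted p = 0.00973, Benjamini-Hochberg adjusted p = 0.318), and its probe set 1 by 1.25 ± 0.49 (unadjusted p = 0.0244, Benjamini-Hochberg adjusted p = 0.367). For MTTP probe set 1 all 3 control females were above both control males. For MTTP probe set 1 the change was -1.09 in 2 brain-dead against 3 control females and -1.91 in 3 against 2 males. DGAT2 probe set 1 changed by -2.01 in females and -2.03 in males. PNPLA2 probe set 1 changed by 1.33 in females and 0.89 in males.

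Other genes of triglyceride handling were lower or did not pass, and none was called higher by its probe set of highest mean. The 6 lists, written with earlier results of these data known, held 80 genes, of which 62 had a probe set and 56 were tested. Of these 56, 10 fell and none rose, a share of 17.9% where 6.81% of all genes tested were called (3.90% lower). The median change of the 56 was -0.46, beside -0.0067 for all genes tested. The count of 10 was 5 without control animal 2 or 3 or brain-dead animal 3 or 5, and 6 without brain-dead animal 4.

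In the supply of glycerol and acyl chains, 1 of 9 genes of glycerol backbone and acylation fell. This was GPD1, which makes glycerol-3-phosphate, with a signal of 6852 ± 2376 in controls and 2404 ± 790 in brain-dead animals (mean ± SD, n = 5). Its change was -1.52 ± 0.30 (limma, Benjamini-Hochberg adjusted p = 0.0137), its other probe set gave -1.81 (0.0125), and the call held under all 23 alternatives. Of 8 genes of fatty acid uptake, binding and activation 2 fell, and all 8 had a change below 0. ACSL1, which activates long-chain fatty acids, changed by -1.06 ± 0.23 (limma, Benjamini-Hochberg adjusted p = 0.0200) and lost its call without brain-dead animal 4 or 5 (0.0502 and 0.0508). The ACSL1 call was lost as well with no filter on signal (0.0572) and with sex and age as covariates (0.0607). DBI, the acyl-CoA binding protein, changed by -1.06 ± 0.26 (limma, Benjamini-Hochberg adjusted p = 0.0303). The name of this DBI probe set marks it as one that may also detect other transcripts. The second DBI probe set missed the threshold at -0.71 (0.192). The DBI call was lost without control animal 2 or 3 or brain-dead animal 1, 3 or 4 (limma, Benjamini-Hochberg adjusted p from 0.0524 to 0.0801). It was lost as well with centring on array medians (0.0506), no filter on signal (0.0764) and sex and age as covariates (0.0885, limma, Benjamini-Hochberg).

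Of 6 lipid droplet genes tested 2 fell. PLIN5, a droplet coat protein that binds PNPLA2, changed by -2.48 ± 0.65 (limma, Benjamini-Hochberg adjusted p = 0.0409). Its signals were 553 ± 243 in controls and 161 ± 214 in brain-dead animals (mean ± SD, n = 5). Brain-dead animal 1, at 539, stood among the controls, and brain-dead animals 2 to 5, at 115, 74.3, 28.1 and 48.2, lay below the array medians, where the size of a fold is uncertain. PLIN5 therefore met the filter through the 5 controls, where it was high, and its call and its place among the 10 genes that fell rest on that. The other 9 of these genes were above the array median on all 10 arrays. The PLIN5 call was lost without control animal 1, 2, 3 or 4 or brain-dead animal 3, 4 or 5 (limma, Benjamini-Hochberg adjusted p from 0.0664 to 0.101). It was lost as well with no filter on signal (0.0666) and with sex and age as covariates (0.0936, limma, Benjamini-Hochberg). HSD17B13, a droplet enzyme of hepatocytes, changed by -1.23 ± 0.32 (limma, Benjamini-Hochberg adjusted p = 0.0391). As for GPAM probe set 1, the name of this probe set marks it as one that may also detect other transcripts. The brain-dead values of HSD17B13 were split, at 20924, 62542, 15652, 15979 and 23754 in brain-dead animals 1 to 5, against 47444 to 62774 in controls. That call held without brain-dead animal 2, with an adjusted p of 0.00263, and was lost without any other single array (0.0504 to 0.0909, limma, Benjamini-Hochberg). It was lost as well with quantile normalization (0.0725), centring on array medians (0.0540) and no filter on signal (0.0812). The same held with sex and age as covariates (0.0844) and with eBayes without trend (0.0537, limma, Benjamini-Hochberg). HILPDA, a hypoxia-induced inhibitor of PNPLA2 named here after its values were seen, missed the threshold at 1.11 ± 0.32 (adjusted p = 0.0590 by limma and Benjamini-Hochberg), but a second HILPDA probe set rose by 1.20 (0.0200).

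Of 10 lipases and cofactors 1 fell, the carboxylesterase CES2, by 0.89 ± 0.19 (limma, Benjamini-Hochberg adjusted p = 0.0180). Its signal went from 60494 ± 10256 to 32852 ± 5967 (mean ± SD, n = 5), and 2 further CES2 probe sets missed the threshold at -0.47 and -0.58. The CES2 call was lost with no filter on signal and with sex and age as covariates (limma, Benjamini-Hochberg adjusted p = 0.0670 and 0.0533). ABHD5, the coactivator of PNPLA2, missed the threshold at 0.43 ± 0.27 (adjusted p = 0.356 by limma and Benjamini-Hochberg), and it too was named after its values were seen. Of 8 genes of VLDL assembly and secretion 1 fell. This was TM6SF2, an endoplasmic reticulum protein needed to lipidate VLDL, with a change of -1.86 ± 0.46 (limma, Benjamini-Hochberg adjusted p = 0.0320) and signals of 2746 ± 1484 in controls and 787 ± 555 in brain-dead animals (mean ± SD, n = 5). APOB, also among the 8, was read by a probe set near the array medians, above them on 8 arrays. Its signal was 225 to 441 in controls and 169 to 383 in brain-dead animals, so its lack of a call says little about APOB. Of the other probe sets of MIA2, a cargo receptor gene of this list named after its values were seen, 1 rose by 1.03 (adjusted p = 0.0415 by limma and Benjamini-Hochberg), but the one of highest mean missed the threshold at -0.23 (0.693). The TM6SF2 call was lost without control animal 2, 3 or 5 or brain-dead animal 1, 3, 4 or 5 (limma, Benjamini-Hochberg adjusted p from 0.0554 to 0.0807). It was lost as well with no filter on signal (0.0502) and with sex and age as covariates (0.0866, limma, Benjamini-Hochberg).

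Of 15 transcriptional regulators of lipid storage 3 fell. INSIG1, which holds the sterol regulatory element-binding proteins in the endoplasmic reticulum, fell from 51348 ± 13378 to 13387 ± 4175 (mean ± SD, n = 5). Its change was -1.96 ± 0.26 (limma, Benjamini-Hochberg adjusted p = 0.00292), the groups did not overlap, and its other probe set gave -1.61 (0.00751). INSIG2, of the same function, changed by -1.40 ± 0.25 (limma, Benjamini-Hochberg adjusted p = 0.00859). The second INSIG2 probe set missed the threshold at -0.86 (0.109). MLXIPL, the carbohydrate response element-binding protein that drives lipogenic genes, changed by -1.16 ± 0.26 (limma, Benjamini-Hochberg adjusted p = 0.0237). INSIG1 and INSIG2 kept their calls under all 23 alternatives. The call of MLXIPL was lost without control animal 1, 2 or 3 or brain-dead animal 3 or 5 (limma, Benjamini-Hochberg adjusted p from 0.0547 to 0.0647). SREBF1, which codes for a sterol regulatory element-binding protein and was named after its values were seen, had a change of 0.07 ± 0.33 (limma, Benjamini-Hochberg adjusted p = 0.922).

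**Figure D5:**
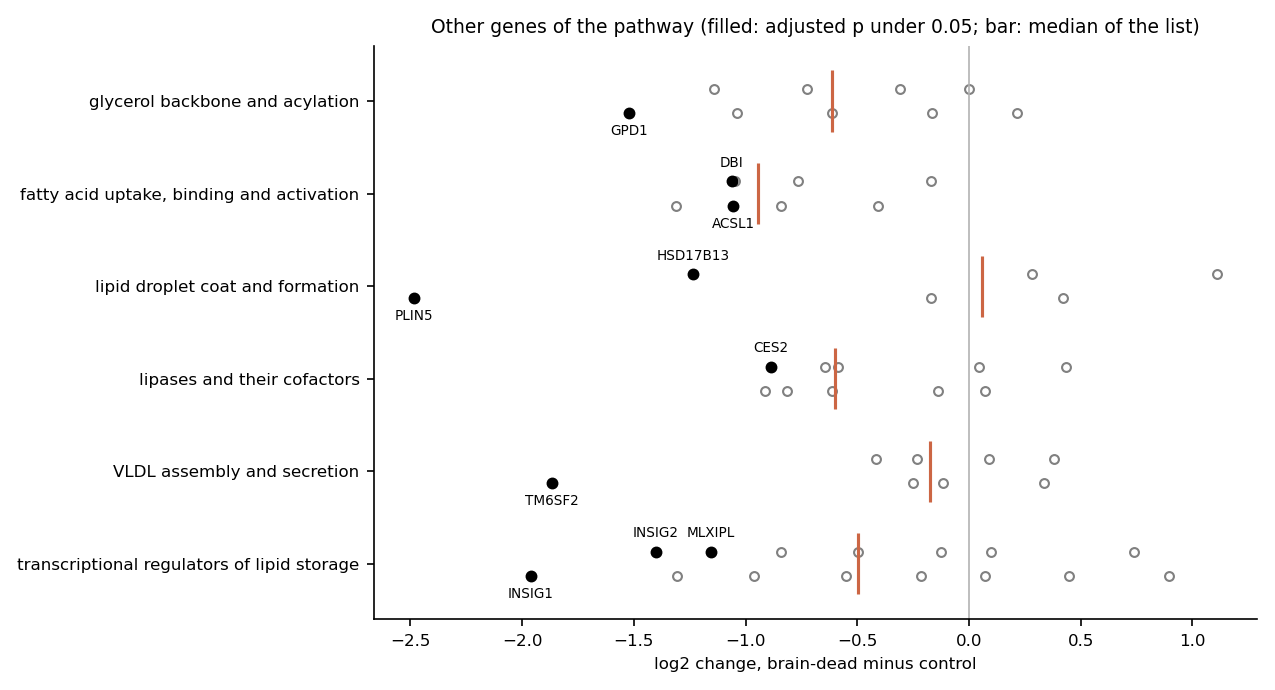
Log2 change (brain-dead minus control, x axis) of the 56 other genes tested, by list, with 1 point per gene and the median of each list as a bar. The 10 filled points have an adjusted p under 0.05 and all lie below 0, and the list medians run from -0.95 for fatty acid uptake, binding and activation to 0.056 for lipid droplet coat and formation.

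Among 9827 other named genes, those whose log2 signals over the 10 arrays followed DGAT2 probe set 1 most closely were GLYAT, PIPOX and NDRG2 (Pearson r = 0.978, 0.974 and 0.973). After centring on group means the correlations were 0.867, 0.831 and 0.949. Those closest to PNPLA2 probe set 1 were IMPDH2, CPSF6 and CCT7 (r = 0.983, 0.973 and 0.972, and 0.934, 0.903 and 0.927 after centring). These are descriptions over 10 arrays that share their animals and the group difference.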

How the data were processed

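Each array came as a column of linear intensity values that the authors had computed with MAS5, per the submitters' processing notes. On every array the 2% trimmed mean was 1000. These were put on a log2 scale here with no pseudocount or further normalization. Of 52865 probe sets, 99 controls were left out, and 26653 above the array median on at least 5 of 10 arrays were tested. Gene symbols came from the 2016 platform annotation, with current symbols through gene IDs.

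Groups were compared with lmFit and trended eBayes of limma 3.58.1 (R 4.3.3), with no covariate. Adjusted p-values of these fits are Benjamini-Hochberg over all probe sets tested, or over all genes tested where a gene was taken as the median of its probe sets. The script was tested on simulated data, in which 100 probe sets changed by 1 and 100 by 2 on the log2 scale. It recovered 20% and 77% of these, and 13 of its 110 calls were false, a larger share than the 0.05 of the threshold. The simulation held 26653 probe sets, so the share changed was smaller than the 6.1% called in the data. Its rates therefore need not carry over to these data. Exact permutation tests used scipy 1.17.1, and figures matplotlib 3.10.9. Nothing in the labels says that the same replicate number marks a shared animal or batch. Every member was described. From each list up to 3 genes past the threshold with the smallest adjusted p were named, and for the most changed member in each direction the 3 genes most like it. Members, lists and alternatives were chosen with earlier results of these data known. The sequences of the genes and probes are not used here.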

Additional observations from a re-analysis of the deposited data

Results flagged for a closer look

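In 3 of 48 groups of 5 animals, over the probe sets named, 1 animal's log2 signal stood apart from the other 4 by more than 0.71 of the group's range, where chance gives about 5% of groups. Brain-dead animal 5 was the lowest of its group for both probe sets of DGAT2, with a gap of 0.882 of the range for probe set 1 (1686, next 4219) and 0.743 for probe set 2 (916, next 2490). Brain-dead animal 1 was the lowest of its group for G0S2, with a gap of 0.796 of the range (6940, next 24033).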

How the results depend on the processing

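Under each of the 23 alternatives in which they were tested, the 6 called members and 10 called list genes kept their direction. The calls of DGAT2 (both probe sets), GPD1, INSIG1 and INSIG2 held throughout. The 6 member probe sets were 3 with no filter, with sex as a covariate and without both animals numbered 1, and 2 to 6 without single arrays. The 3 member genes were 5 with the replicate block, 1 at an adjusted p under 0.01, 5 at one under 0.1, and 1 to 4 without single arrays. The 10 list genes were 4 with no filter, 4 with sex and age, 17 with the replicate block, and 5 to 12 without single arrays. The 1627 probe sets changed over the whole array were 1056 with no filter (more probe sets tested), 1035 with sex and age, 3013 with the replicate block, 674 without both animals numbered 1, and 660 to 2289 without single arrays. Otherwise the cause was not tested.

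After centring on group means, same-numbered animals had correlations of 0.380, 0.0643, 0.128, 0.0889 and 0.128 in pairs 1 to 5, all positive. Differently numbered animals were not compared, so these values cannot decide whether the numbers mark pairs. The numbers were not taken as pairing because nothing in the labels says that they are. With the replicate block G0S2 passed (limma, Benjamini-Hochberg adjusted p = 0.00731), as did both probe sets of MTTP (0.0172 and 0.0207).

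Changes near 0 turned sign without passing. PNPLA3 probe set 1 was at -0.0080 with a pseudocount of 64, -0.21 with sex and age, -0.32 with array weights and -0.37 without both animals numbered 1, and from -0.24 to 0.31 without single arrays. PNPLA3 probe set 2 was at -0.20, -0.12 and -0.16 in the last 3 of these, and from -0.10 to 0.31 without single arrays. PNPLA2 probe set 2 was at -0.066 without both animals numbered 1 and from -0.075 to 0.16 without single arrays. Without single arrays the difference in change between the probe sets of PNPLA3 ran from -0.20 to 0.069, and that between G0S2 and PNPLA2 from -0.34 to 0.41. With the filter at the 75th percentile neither PLIN5 nor PNPLA3 was tested, and the 4 lowest PLIN5 signals lay below the array medians.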

Other observations

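Some regulators and other genes of the lists, not described above, had changes that missed the threshold, and all were named after their values were seen. KLF15, a factor of hepatic fasting metabolism, had a change of -1.31 ± 0.39 (limma, Benjamini-Hochberg adjusted p = 0.0647) and one of -2.11 by its other probe set (0.155). MLX, the partner of MLXIPL, had a change of 0.74 ± 0.22 (0.0663). Its other probe sets gave smaller ones of 0.20, 0.23 and 0.49 (0.623, 0.577 and 0.157). CREB3L3, a liver factor that drives lipid-clearing genes, had a change of 0.90 ± 0.37 (0.162). Its other probe sets gave 0.55, 0.90 and 1.01 (0.374, 0.252 and 0.0995). CD36, a fatty acid translocase, had a change of -1.05 ± 0.31 (0.0629), from a signal of 21806 ± 9210 in controls to 10474 ± 4221 in brain-dead animals (mean ± SD, n = 5). AQP9, the glycerol channel of hepatocytes, had one of -1.04 ± 0.34 (0.0910), all from limma with Benjamini-Hochberg adjustment.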
